A study of Mus musculus with 4 samples.

Results

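The 10 genes described here encode mitotic kinases, factors that drive exit from mitosis, and proteins used as markers of proliferation: Mki67, Top2a, Aurka, Aurkb, Plk1, Birc5, Cdca8, Cdc20, Ube2c and Tpx2. They were chosen by gene symbol, with earlier results of these data known, and all 10 were found among the 24341 genes of the deposited expression table. The lists of related genes were chosen likewise. The shares of all genes printed beside counts of the 10 or of a list are therefore descriptive and no independent test. The samples were CAD cells (Cath.-a-differentiated), a catecholaminergic line of mouse neurons that stops dividing and grows neurites when serum is withdrawn. All cultures were without serum for 5 days, and for 24 h they were given either DMSO, the solvent (2 libraries), or ACSS2i, a quinoxaline urea that inhibits the acetyl-CoA synthetase ACSS2, at 20 µM (2 libraries). The comparison asked how the transcripts of these neuron-like cells differed when ACSS2 was inhibited. Only 1 cell line was used. Whether a group's libraries are separate cultures is not in the labels, and p-values therefore measure no more than how these libraries scatter, which can be technical.

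As background, the transcripts of these genes are made mainly in G2 and mitosis and are scarce in cells that have left the cell cycle. Polo-like kinase Plk1 and the Aurora kinases phosphorylate centrosome, spindle and kinetochore proteins. Mitosis then ends when the anaphase-promoting complex, a ubiquitin ligase, is switched on by Cdc20 and marks cyclin B and securin for destruction, with Ube2c as the enzyme that supplies the first ubiquitin. In quiescent cells the DREAM complex holds such genes silent through the CHR promoter element, and the CCAAT box beside it is bound by the activator NF-Y.

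Every one of the 10 genes had higher values in both ACSS2i libraries than in both DMSO libraries. Their summed level was 10.5 and 24.3 FPKM in the DMSO libraries and 112 and 274 FPKM in the ACSS2i libraries, where FPKM counts fragments per kilobase of transcript relative to the depth of the library. The lowest ACSS2i sum was thus 4.59 times the highest DMSO sum. Over the 10 genes the ratio of group means ran from 6.58 (Aurka) to 29.3 (Cdc20, with 1 DMSO library at the floor), with a median of 10.8. None of the 10 passed the test across all genes: with limma on log2(FPKM + 1) the adjusted p was 0.319 to 0.507 for the 10, and 0.0261% of the 11486 genes tested were called at an adjusted p under 0.05. At an unadjusted p under 0.05 by limma, 10 of the 10 were higher, and 3.29% of all genes tested were. Of the 10, 3 (Aurkb, Plk1 and Cdc20) passed the filter on low values only through the ACSS2i libraries, which fixed the direction of their group means. Without that filter 7 of the 10 had an unadjusted p under 0.05 by limma, as did 1342 of 24340 genes in either direction. The 3 that did not were Aurka, Plk1 and Cdc20. Values above both DMSO libraries in both ACSS2i libraries were found for 19.0% of all genes tested (values below both for 18.3%), and a log2 fold change above 1 for 2.26%, against 10 of the 10 here. The median log2 fold change was 2.34 for the 10 genes and 0.020 for all genes tested. With 2 libraries a side, the smallest p of an exact permutation test is 0.333. Bulk RNA does not separate more dividing cells from more of these transcripts in each cell.

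**Figure D1:**
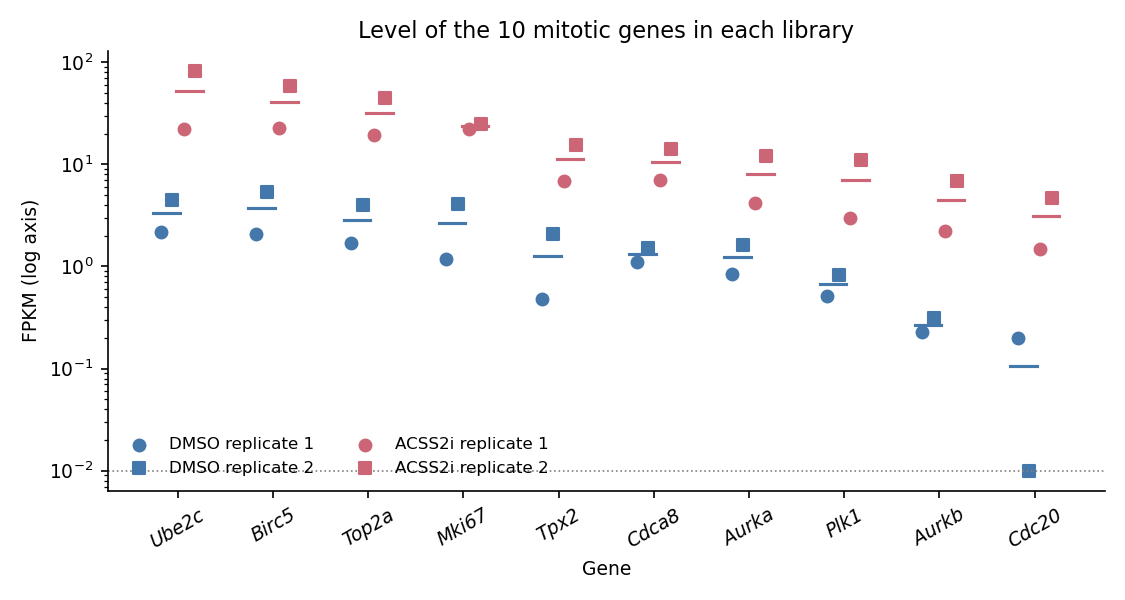
FPKM on a log axis of the 10 genes, ordered by their ACSS2i mean; circles are replicate 1, squares replicate 2, short lines the group means, and the dotted line the floor of the deposited values at 0.01. Each gene's ACSS2i points lie above its DMSO points, and in each gene ACSS2i replicate 2 is the highest library.

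Nominal depth, read from the steps between low values, was 11700000 and 3410000 reads for the DMSO libraries and 7900000 and 10000000 for the ACSS2i libraries. DMSO replicate 2 was therefore the shallowest. Of 10 neuronal markers 8 were at 1 FPKM or more in all libraries, and 2, the neurofilament genes Nefl and Nefm, were under 1 FPKM in all. The list's sum was 913 to 949 FPKM with DMSO and 629 to 1299 FPKM with ACSS2i. Of 8 catecholaminergic markers, 5 were at 1 FPKM or more in all libraries. Dbh, the enzyme that makes noradrenaline, stayed at 0.226 to 0.624 FPKM, and Slc18a1 was also under 1 FPKM in all. Ddc was at 2.45 and 3.73 FPKM with DMSO and at 0.0671 and 3.17 FPKM with ACSS2i. The sum of the 8 was 176.6 to 189.5 FPKM with DMSO and 147.6 to 271.4 FPKM with ACSS2i. Markers of other brain and connective tissue cells were low in both groups. Their sums were 0.184 to 0.532 FPKM with DMSO and 0.531 to 1.45 FPKM with ACSS2i for 6 astrocyte genes, at most 0.989 FPKM in any library for 6 microglial genes and at most 0.689 FPKM for 6 fibroblast genes. For 7 oligodendrocyte genes the sum was 5.12 to 5.30 FPKM with DMSO and 4.497 to 5.59 FPKM with ACSS2i, with Olig1 and Olig2 at the floor in all libraries.

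The stretches before the start site are shown for the letters of the elements named above, some of which lie outside the printed bases. Whether these letters bear on the levels was not tested. RefSeq promoter windows, 250 bases before to 50 after the start on build GRCm38.p6, were found for 8 of the 10 genes, with none matched for Aurkb and Tpx2. The letters TTTGAA (the CHR, on either strand) were in 7 of the 8 windows and in 17.9% of all 32851 windows. The letters CCAAT (on either strand) were also in 7 of the 8, against 37.4% of all windows, and 6 of the 8 held at least 2 of them, against 11.7%. The CHR variant TTTAAA was in 3 of the 8 and in 13.2% of all windows, and the E2F letters TTTNGCGC in 0 of the 8 and 1.38% of all. In the 8 windows the TTTGAA and CCAAT matches shared letters at 1 site, 1 base in Cdca8. In the lines below, 5′ to 3′ on the gene's own strand, capitals mark TTTGAA and CCAAT or their reverse complements. The stretches are chr7:135716380-135716499 (minus strand) for Mki67, chr11:99024190-99024309 (minus) for Top2a, chr4:118437344-118437463 (minus) for Cdc20, chr2:172370571-172370690 (minus) for Aurka, chr7:122159315-122159434 (plus) for Plk1, chr4:124936918-124937037 (minus) for Cdca8 and chr2:164769689-164769888 (plus) for Ube2c.
Mki67: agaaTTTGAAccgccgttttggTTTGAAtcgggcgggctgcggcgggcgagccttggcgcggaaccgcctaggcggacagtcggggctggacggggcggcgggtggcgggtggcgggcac
Top2a: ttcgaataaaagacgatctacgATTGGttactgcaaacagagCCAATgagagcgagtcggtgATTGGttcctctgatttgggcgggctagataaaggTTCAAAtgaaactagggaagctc
Cdc20: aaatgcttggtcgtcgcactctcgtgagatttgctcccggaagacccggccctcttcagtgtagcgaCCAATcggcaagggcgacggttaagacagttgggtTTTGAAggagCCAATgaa
Aurka: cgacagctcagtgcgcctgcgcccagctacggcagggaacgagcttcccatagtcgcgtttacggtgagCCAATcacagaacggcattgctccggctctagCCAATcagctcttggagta
Plk1: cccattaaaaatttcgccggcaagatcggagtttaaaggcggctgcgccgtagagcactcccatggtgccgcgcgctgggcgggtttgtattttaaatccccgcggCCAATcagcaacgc
Cdca8: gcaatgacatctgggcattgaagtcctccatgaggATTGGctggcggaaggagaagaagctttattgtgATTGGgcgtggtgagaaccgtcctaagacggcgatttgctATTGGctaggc
Ube2c: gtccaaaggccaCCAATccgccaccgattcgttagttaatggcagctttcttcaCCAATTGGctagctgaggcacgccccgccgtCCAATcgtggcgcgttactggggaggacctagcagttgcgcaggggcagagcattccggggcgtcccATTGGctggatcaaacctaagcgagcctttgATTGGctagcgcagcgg
The first 6 of these lines cover the 120 bases before the start, and that of Ube2c covers 240 to 41 bases before it. In Mki67 the TTTGAA letters begin 116 and 98 bases before the start. Its 3 CCAAT matches, at 188, 166 and 141 bases before the start, lie outside the printed stretch. In Top2a they begin 179 and 23 bases before it, with 6 CCAAT matches in the window. In Cdc20 a TTTGAA at 18 bases before the start lies between CCAAT matches at 53 and 8 bases before it. In Ube2c the match lies 29 bases before the start, outside the printed stretch, with 6 CCAAT matches upstream of it, a pair of which share bases. In Cdca8, Plk1 and Aurka the match begins after the start, at base 14, 31 and 33 of the transcript. The Birc5 window held neither TTTGAA nor CCAAT. Such matches describe letters only, and no binding was measured here.

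**Figure D2:**
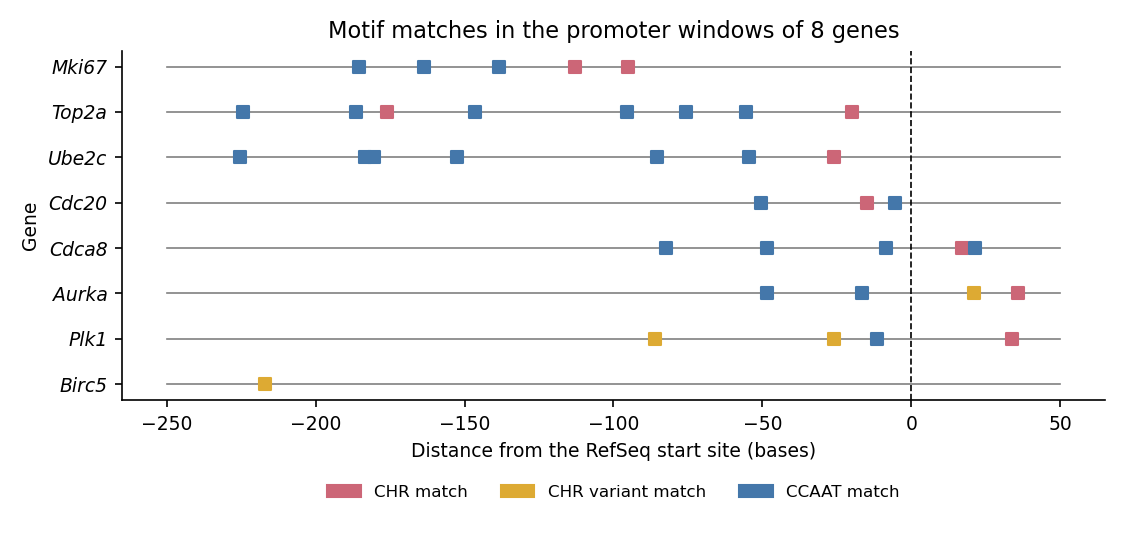
Positions of TTTGAA (CHR), TTTAAA (CHR variant) and CCAAT matches on either strand, in bases from the RefSeq start site (dashed line), in the windows of 8 genes. Of the 8 windows, 7 hold a TTTGAA match and 7 a CCAAT match, and Birc5 has a TTTAAA match only.

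Both proliferation markers were low with DMSO and high with ACSS2i. Mki67, on chromosome 7 from 135689784 to 135716361 (minus strand, mm10), encodes the Ki-67 protein that coats mitotic chromosomes. It was at 1.18 and 4.13 FPKM with DMSO and at 22.2 and 24.9 FPKM with ACSS2i (2.66 ± 2.09 and 23.5 ± 1.89, SD, n = 2 each). The DMSO libraries differed 3.50-fold, and the 1.12-fold difference inside the ACSS2i pair was the smallest of the 10 genes. Its log2 fold change was 2.87 ± 0.42 (SE; limma unadjusted p = 0.000505, adjusted p = 0.319), rank 14 by p among the 11486 genes. Top2a, on chromosome 11 from 98992943 to 99024189 (minus strand), encodes the topoisomerase that untangles sister chromatids. It was at 1.71 and 4.02 FPKM with DMSO and at 19.6 and 44.4 FPKM with ACSS2i, a log2 fold change of 3.05 ± 0.47 (SE; limma adjusted p = 0.319). Its paralog Top2b, which dividing and non-dividing cells both express, was at 40.5 and 49.8 FPKM with DMSO and 38.8 and 64.4 FPKM with ACSS2i, and the groups overlapped. The level of Top2a relative to Top2b was 0.0422 and 0.0806 with DMSO and 0.504 and 0.689 with ACSS2i.

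**Figure D3:**
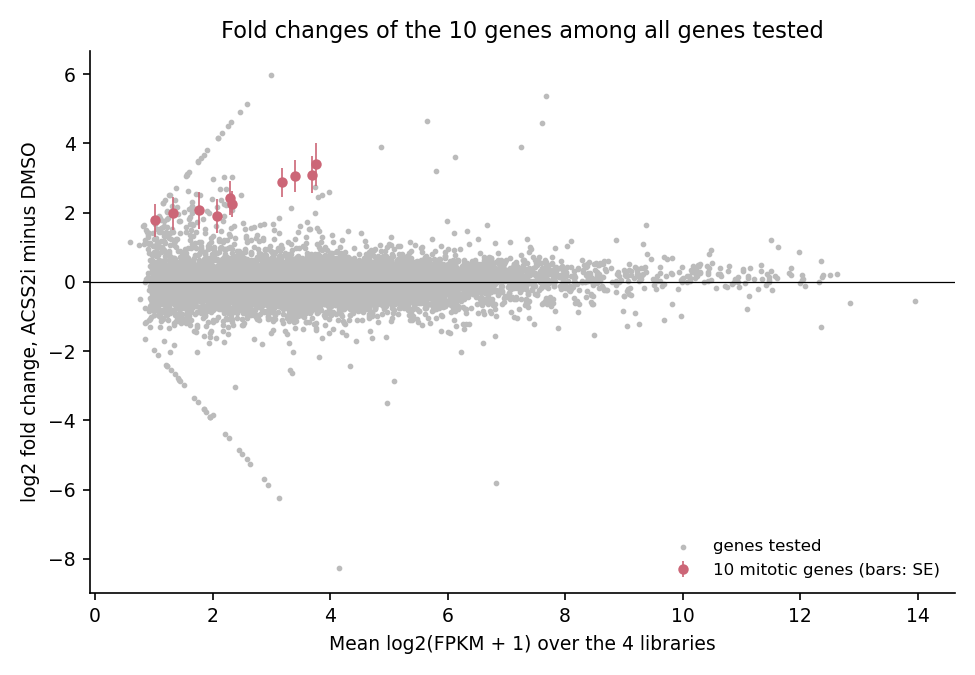
Log2 fold change (ACSS2i minus DMSO, on log2(FPKM + 1)) against mean log2(FPKM + 1) for the 11486 genes tested (grey) and the 10 genes (red, bars are SE). The 10 genes lie between 1.77 and 3.39, while the median of all genes is 0.020.

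The kinases Aurka and Plk1 and the Aurora A activator Tpx2 were all near or under 2 FPKM with DMSO. Aurka, on chromosome 2 from 172356190 to 172370535 (minus strand), builds the spindle poles. It was at 0.844 and 1.61 FPKM with DMSO and at 4.17 and 11.98 FPKM with ACSS2i. The groups did not overlap, and the lower ACSS2i library was 2.59 times the higher DMSO library, the narrowest gap of the 10 genes (log2 fold change 1.90 ± 0.48, SE; limma adjusted p = 0.491). Tpx2, on chromosome 2 from 152847964 to 152895321 (plus strand), brings Aurora A to spindle microtubules and holds it active. It was at 0.481 and 2.06 FPKM with DMSO and at 6.87 and 15.6 FPKM with ACSS2i, with a 4.29-fold difference inside the DMSO pair, the widest of any member detected in both (log2 fold change 2.43 ± 0.50, SE; limma adjusted p = 0.448). Plk1, on chromosome 7 from 122159439 to 122169873 (plus strand), drives mitotic entry and spindle assembly. It was at 0.516 and 0.817 FPKM with DMSO and at 3.00 and 11.1 FPKM with ACSS2i, so that the ACSS2i libraries differed 3.69-fold (log2 fold change 2.07 ± 0.54, SE; limma adjusted p = 0.499). Of the other polo-like kinases, Plk4, which duplicates centrioles, was at 4.27 and 7.01 FPKM with DMSO and at 12.8 and 10.9 FPKM with ACSS2i (log2 fold change 0.98; limma unadjusted p = 0.0143, adjusted p = 0.589). Plk2 (0.428 and 3.04 FPKM with DMSO, 0.407 and 1.03 with ACSS2i) and Plk3 (16.3 and 29.3 FPKM, then 18.7 and 19.1), kinases of the stress response, overlapped between groups. Plk5 and the germ cell Aurora kinase Aurkc stayed at or under 0.318 FPKM in every library and were not tested.

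Aurkb, Birc5 and Cdca8 encode subunits of the chromosomal passenger complex, which corrects the attachment of chromosomes to the spindle and later helps to position the cleavage furrow. Aurkb, the kinase of the complex, on chromosome 11 from 69045647 to 69051664 (plus strand), was at 0.226 and 0.311 FPKM with DMSO and at 2.21 and 6.82 FPKM with ACSS2i. Birc5, or survivin, on chromosome 11 from 117849251 to 117855743 (plus strand), was at 2.07 and 5.33 FPKM with DMSO and at 22.9 and 58.2 FPKM with ACSS2i. Cdca8, or borealin, on chromosome 4 from 124918465 to 124939311 (minus strand), was at 1.12 and 1.53 FPKM with DMSO and at 7.04 and 14.1 FPKM with ACSS2i. All 3 subunits were thus above DMSO in both ACSS2i libraries, with ACSS2i replicate 2 highest. Their log2 fold changes were 1.98 ± 0.47 for Aurkb, 3.09 ± 0.53 for Birc5 and 2.25 ± 0.36 for Cdca8 (SE; limma adjusted p = 0.484, 0.342 and 0.319). Cdca8 had the smallest standard error of the 10 genes. Incenp, the scaffold of the complex, was at 2.95 and 4.61 FPKM with DMSO and at 8.70 and 12.04 FPKM with ACSS2i (log2 fold change 1.26; limma unadjusted p = 0.00545, adjusted p = 0.484; named for its place in the complex after its values were seen). The subunits were therefore not in a fixed ratio: Aurkb relative to Incenp was 0.0768 and 0.0675 with DMSO and 0.255 and 0.566 with ACSS2i, and Birc5 relative to Incenp 0.702 and 1.16, then 2.64 and 4.84.

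Cdc20 and Ube2c, which act on the anaphase-promoting complex, stood at the ends of the range with ACSS2i: Cdc20 was the lowest of the 10 genes in both libraries, and Ube2c had the highest group mean, although Birc5 was above it in replicate 1 (22.9 against 22.2 FPKM). Cdc20, the activator, on chromosome 4 from 118432901 to 118437352 (minus strand), was at 0.201 FPKM and at the floor of 0.01 with DMSO and at 1.49 and 4.69 FPKM with ACSS2i (log2 fold change 1.77 ± 0.47, SE; limma adjusted p = 0.507). The floor value in DMSO replicate 2 allows up to 0.517 FPKM, which is 3 reads in that library, and this is below both ACSS2i values. The ratio of its group means, 29.3, rests on that floor and is not a measured size. Ube2c, the ubiquitin-conjugating enzyme, on chromosome 2 from 164769898 to 164778822 (plus strand), was at 2.19 and 4.51 FPKM with DMSO and at 22.2 and 82.5 FPKM with ACSS2i. It had the largest log2 fold change of the 10, 3.39 ± 0.62 (SE; limma adjusted p = 0.393), and the widest difference inside the ACSS2i pair, 3.71-fold. Fzr1, the other activator, which takes over late in mitosis and in G1 and also works in neurons, was at 19.5 and 21.7 FPKM with DMSO and at 18.7 and 24.9 FPKM with ACSS2i and overlapped between groups. Ube2s, which extends the ubiquitin chains, was at 68.4 and 70.0 FPKM with DMSO and at 62.9 and 100.3 FPKM with ACSS2i and overlapped as well. Ube2c relative to Ube2s was 0.0320 and 0.0644 with DMSO and 0.354 and 0.823 with ACSS2i.

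For 7 of the 10 genes the values could be turned back into whole reads, since the scaled values of the 4 libraries stood at whole multiples within 0.05 of a read. Multiples of up to 120 reads in DMSO replicate 1 were tried. How often values match by accident, in these genes or in others, was not measured. Cdc20 rested on 4 and 0 reads with DMSO and on 20 and 80 reads with ACSS2i, Aurkb on 5 and 2, then 33 and 129, and Plk1 on 13 and 6, then 51 and 239. Aurka had 18 and 10 reads with DMSO and 60 and 219 with ACSS2i, Cdca8 20 and 8, then 85 and 216, and Ube2c 20 and 12, then 137 and 646. Top2a, the deepest of the 7, had 108 and 74 reads, then 836 and 2403. These are the smallest read numbers that give whole multiples, except for Cdc20, whose number was set with its transcript length, and a whole factor cannot be told apart for the others where annotated lengths differ. Exact 95% Poisson intervals were taken, with 3 reads as the upper limit for a value of 0 reads, and they cover counting error only. The lowest bound with ACSS2i lay above the highest bound with DMSO in 7 of the 7. The same was so for 3.26% of the 3100 tested genes for which the same search gave whole reads. For this share and those below, every gene had its smallest read numbers, Cdc20 included, with no use of transcript length. Fewer reads give wider intervals, so 7 of the 7 with the larger Cdc20 numbers is not a like comparison. Of the 7, Aurkb, Plk1 and Cdc20 passed the filter only through the ACSS2i libraries, which fixed the direction of their group means beforehand. For Plk1 the intervals were 0.275 to 0.883 and 0.300 to 1.78 FPKM with DMSO, and 2.23 to 3.95 and 9.71 to 12.6 FPKM with ACSS2i. The intervals of the ACSS2i libraries did not overlap each other in 7 of the 7, and those of the DMSO libraries did not overlap in 1 of the 7, Top2a, against 23.5% and 6.65% of the 3100 genes. The counting intervals thus overlapped between the DMSO libraries for 6 of these genes and between the ACSS2i libraries for 0 of the 7. What made the libraries of a group differ was not tested.

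**Figure D4:**
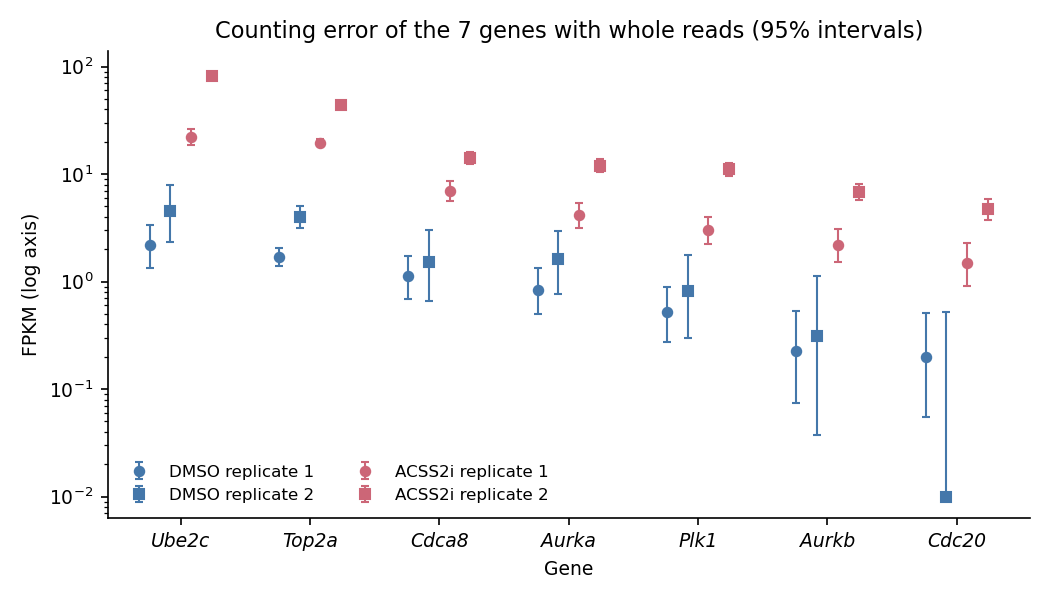
FPKM on a log axis of the 7 genes with whole reads, with exact 95% Poisson intervals of the reads behind each value; Cdc20 in DMSO replicate 2 has 0 reads and is drawn from the floor to the limit of 3 reads. The ACSS2i intervals lie above the DMSO intervals in all 7 genes, and ACSS2i replicate 2 lies above ACSS2i replicate 1 without overlap.

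The genes varied together across libraries, with some differences in make-up. ACSS2i replicate 2 was above ACSS2i replicate 1 in 10 of the 10, by 1.12-fold (Mki67) to 3.71-fold (Ube2c) and more than 2-fold in 9, and the median difference on the log2 scale was 1.24 against 0.022 for all genes tested. DMSO replicate 2 was above DMSO replicate 1 in 9 of the 10, with Cdc20 the exception, and the median log2 difference was 0.64 against -0.00018 for all genes. Ube2c made up 20.8% and 18.5% of the 10 genes' summed FPKM with DMSO, and 19.9% and 30.1% with ACSS2i. Mki67 made up 11.2% and 17.0% with DMSO, and 19.9% and 9.07% with ACSS2i. Top2a held a nearly constant share, 16.2%, 16.5%, 17.5% and 16.2% in DMSO replicates 1 and 2 and ACSS2i replicates 1 and 2. By level per length, Ube2c, Birc5, Top2a and Mki67 were the upper 4 and Aurkb and Cdc20 the lowest in every library. Within the upper 4, Ube2c and Birc5 changed places between libraries, as did Top2a and Mki67, so the order inside these pairs was not fixed. Ube2c and Birc5 had values above Top2a and Mki67 in every library, but not always beyond counting error. In ACSS2i replicate 1 Ube2c and Mki67 were both at 22.2 FPKM, where the Ube2c counting interval was 18.7 to 26.3. In DMSO replicate 2 they were at 4.51 and 4.13 FPKM, with a Ube2c interval of 2.33 to 7.87. Among the 8656 other tested genes averaging 5 FPKM or more, the profiles nearest to the median centred profile of the 10 genes, by Euclidean distance on log2(FPKM + 1) over 4 libraries, were those of Ckap2l (distance 0.239), Shcbp1 (0.277), Ccna2 (0.393), Cdk1 (0.550) and Nuf2 (0.571). Ckap2l was at 1.14 and 1.58 FPKM with DMSO and at 7.98 and 19.2 FPKM with ACSS2i.

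Partners of these 10 genes in mitotic entry and the spindle checkpoint also had mostly higher values with ACSS2i. By limma 0 genes of any of the lists described here passed an adjusted p of 0.05. Of 19 tested genes of mitotic entry and its kinases, 17 had a positive log2 fold change, 16 lay above DMSO in both ACSS2i libraries, 11 had an unadjusted p under 0.05 by limma (all higher) and the median was 1.14. Over all genes tested 19.0% lay higher without overlap and 3.29% were higher at an unadjusted p under 0.05. Of the 19, 8 had DMSO means under 1 FPKM and passed the filter only through the ACSS2i libraries, which fixed their direction; these 8, with Ccnb1, Nek2 and Pbk among them, are in both the 16 and the 11. The 19 included Cdk1, the kinase that drives mitosis (1.17 and 1.74 FPKM with DMSO, 4.91 and 17.0 with ACSS2i), and its partner cyclin B1, Ccnb1 (0.451 and 1.16 FPKM, then 6.07 and 28.2). Cyclin A2, Ccna2, was at 1.065 and 1.15 FPKM, then 5.64 and 13.8, and the mitotic kinases Nek2 and Pbk had log2 fold changes of 2.00 and 2.61. Of 13 tested spindle checkpoint genes and passenger complex partners, 13 were positive, 11 lay higher without overlap (19.0% of all genes) and 9 had an unadjusted p under 0.05 by limma (3.29% of all genes), with a median of 1.26. Of these, 5 (Bub1, Bub1b, Ttk, Sgol1 and Sgol2a) passed the filter only through the ACSS2i libraries and had to be higher. The checkpoint kinases Bub1b, Ttk and Bub1 had log2 fold changes of 2.04, 2.04 and 1.89, and Zwilch, of the kinetochore complex that recruits dynein, 1.90.

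The subunits of the anaphase-promoting complex itself lay near the median of all genes. All 14 of its subunits were tested, 10 were positive, 3 lay higher and 1 lower without overlap (19.0% and 18.3% of all genes), 1 (Anapc4) was higher at an unadjusted p under 0.05 by limma (3.29% of all genes), and the median was 0.045, close to the 0.020 of all genes. Anapc4 was at 31.7 and 28.6 FPKM with DMSO and at 46.6 and 50.9 FPKM with ACSS2i, and Anapc13 at 380 and 280.2 FPKM, then 272 and 278. Of 17 tested substrates and inhibitors of the complex, a list that as drawn up also holds spindle and cytokinesis proteins, 16 were positive, and the same number lay higher without overlap (19.0% of all genes) and had an unadjusted p under 0.05 by limma (3.29% of all genes), with a median of 1.55. Of those 16, 9, with Cep55, Hmmr and Dlgap5 among them, passed the filter only through the ACSS2i libraries and had to be higher. Fbxo5, which encodes the inhibitor Emi1, was at 3.86 and 4.93 FPKM with DMSO and at 11.96 and 11.27 FPKM with ACSS2i. Cep55, needed for the final cut between daughter cells, had a log2 fold change of 2.19, and the spindle proteins Hmmr and Dlgap5 2.31 and 2.04.

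Of 12 other proliferation markers, genes of S phase and of the G1 to S transition, 12 were positive, 9 lay higher without overlap (19.0% of all genes) and 9 had an unadjusted p under 0.05 by limma (3.29% of all genes), with a median of 1.17. Rrm2 and Tk1, counted in both, passed the filter only through the ACSS2i libraries and had to be higher. Rrm2, a ribonucleotide reductase subunit, was at 0.522 and 0.689 FPKM with DMSO and at 3.57 and 6.61 FPKM with ACSS2i, and Tk1, Cdt1 and Ccne2 had log2 fold changes of 1.76, 1.30 and 1.19. Of 15 tested genes of the DREAM complex and of cell cycle withdrawal, 10 were positive, with a median of 0.17. Without overlap 4 lay higher and 3 lower (19.0% and 18.3% of all genes). At an unadjusted p under 0.05 by limma 1 was higher (Lin9) and 1 lower (Btg2). By it 3.29% of all genes were higher, and 799 of 11486 passed in either direction. The CDK inhibitor p21, Cdkn1a, was at 17.9 and 24.4 FPKM with DMSO and at 13.0 and 36.9 FPKM with ACSS2i, and p27, Cdkn1b, at 37.7 and 27.6, then 42.3 and 45.4. Btg2, an antiproliferative gene, had a log2 fold change of -0.61, and the DREAM subunit genes Lin9 and Rbl1 0.72 and 0.84. Acss2, whose product the compound inhibits, was at 11.7 and 10.0 FPKM with DMSO and at 12.8 and 26.6 FPKM with ACSS2i.

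**Figure D5:**
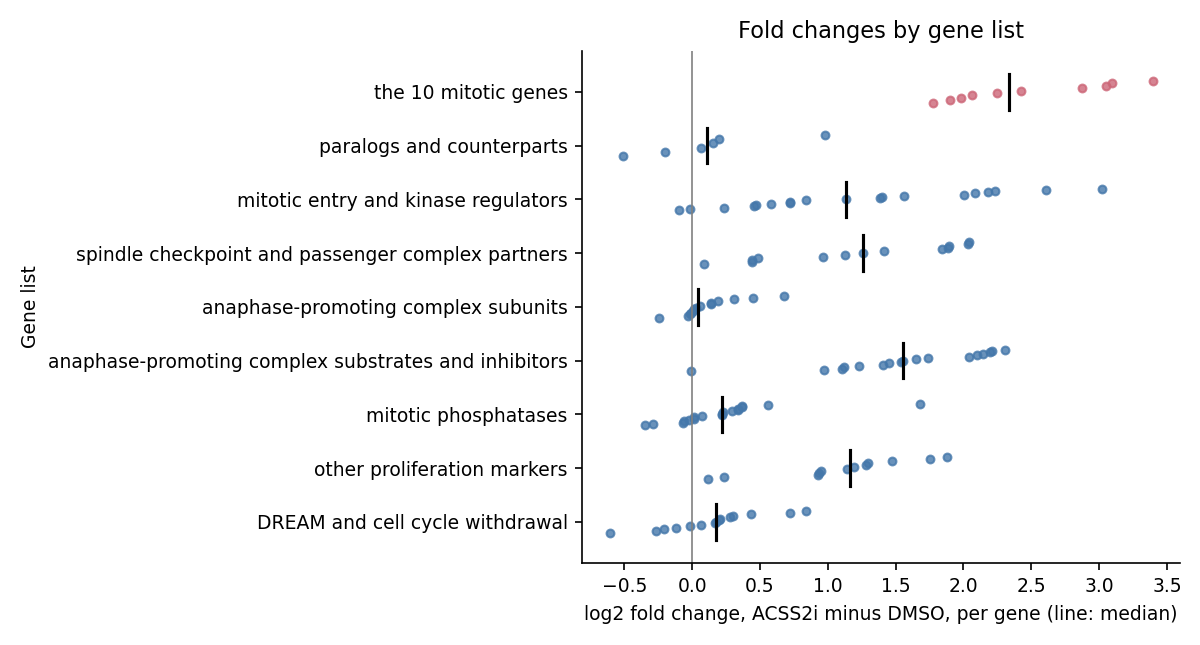
Log2 fold change of each tested gene (points) and list medians (black lines) for the 10 genes and the lists of their partners. The 10 genes lie between 1.77 and 3.39, the lists of checkpoint, entry, substrate and proliferation genes have medians of 1.14 to 1.55, and the anaphase-promoting complex subunits centre on 0.045.

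Some limits touch single genes. The filter on low values kept genes averaging 1 FPKM or more. Fold changes on log2(FPKM + 1) understate the change of genes such as Aurkb, Plk1 and Cdc20, whose DMSO means were under 1 FPKM. How the counting treated strand was not given in the sources used here, and protein-coding genes overlap Ube2c (Tnnc2, 1662 bases), Cdca8 (9930104L06Rik, 2264 bases) and Cdc20 (Elovl1, 53 bases) on the opposite strand. Their values were 0.163 and 0.01 FPKM with DMSO and 0.242 and 0.572 with ACSS2i for Tnnc2, 3.33 and 3.78, then 3.52 and 2.71 for 9930104L06Rik, and 11.03 and 8.99, then 9.01 and 14.4 for Elovl1.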

How the data were processed

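Polyadenylated RNA was sequenced in 4 libraries of CAD cells. Per the submitters' processing notes, the tools were Cufflinks 2.2.1, Cuffdiff, STAR 2.3.0 and bcl2fastq 02.14.01.07 and the build mm10. The annotation and the scaling are not given in the sources used here. In all, the authors' deposited table holds 1 value per library for 24341 genes, described as adjusted, with no unit in its header; it was taken as FPKM because the submitters' processing notes name Cufflinks. The floor is 0.01, and 1 gene with a failure mark was left out.

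Libraries were grouped by their titles. ACSS2i was compared with DMSO by limma 3.58.1 (R 4.3.3; trend, two-sided, Benjamini-Hochberg) on log2(FPKM + 1), over the 11486 genes averaging 1 FPKM or more; the fit was tested on simulated data. The 12 alternatives were other pseudocounts, filters, scalings, no trend, a replicate block and leaving out each library. Relative depths (1, 0.292, 0.675, 0.857) came from the most common ratio among values up to 0.5 FPKM, and nominal reads from 105 single-transcript genes of GENCODE M21. Gene positions are GENCODE's.

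The genes and lists were chosen with earlier results of these data known. Text names the 10 genes, up to 4 genes of smallest p per list, the paralogs, Cdkn1a, Cdkn1b, Cdk1, Ccnb1, Fzr1, Acss2 and 5 nearest profiles.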

Additional observations from a re-analysis of the deposited data

How the results depend on the processing

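The 10 genes had positive log2 fold changes under all 12 alternatives, except that with a mean of at least 5 FPKM only 6 of them were tested, all positive. Their median log2 fold change of 2.34 became 3.38 (pseudocount 0.1) and 1.30 (pseudocount 5), by construction of the scale, and 2.96 over the 6 genes left with a mean of at least 5. Leaving out 1 library moved it between 1.84 (without ACSS2i replicate 2) and 2.91 (without ACSS2i replicate 1). The scalings left it at 2.35 (quantile) and 2.33 (median of ratios). With the replicate block 2 of the 10, Top2a and Birc5, passed with limma (adjusted p = 0.0336 for both), and 0 passed under every other alternative, with limma adjusted p from 0.0716 to 1. The numbers mark no stated pairing, and deviations of same-numbered libraries correlated at -0.017 across genes. Among the 10 genes, however, replicate 2 was above replicate 1 in 9 with DMSO and in 10 with ACSS2i. Without a filter 7 of the 10 had an unadjusted p under 0.05 by limma, as did 1342 of 24340 genes in either direction. Over all genes, 3 calls became 6 with a pseudocount of 0.1, 0 with a pseudocount of 5 (795 at an unadjusted p under 0.05 by limma), 0 without a filter (1342), 8 with the replicate block, and 13 to 26 without 1 library. For the other settings the cause was not tested. Without 1 library a group has a lone library, assumed to vary like the other group, so those counts and adjusted p-values rest on 1 pair's spread and say nothing of stability. The DMSO values of Cdc20 and Aurkb rest on at most 5 reads each.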

Other observations

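Phosphatases that oppose the mitotic kinases, listed with their regulators and not described above, had 18 tested genes. Of these 13 were positive, and 7 lay higher and 2 lower without overlap (19.0% and 18.3% of all genes tested). The 2 lower were Ensa and Arpp19, which encode regulators and not phosphatases. By limma 2 were higher at an unadjusted p under 0.05 (3.29% of all genes tested), and 0 passed an adjusted p of 0.05. The median log2 fold change was 0.22 against 0.020 for all genes. Cdkn3, a phosphatase of CDKs whose transcript is itself made in mitosis, passed the filter only through the ACSS2i libraries and had to be higher. It was at 0.280 FPKM and the floor of 0.01 with DMSO and at 1.45 and 4.41 FPKM with ACSS2i (log2 fold change 1.68; limma unadjusted p = 0.0113, adjusted p = 0.553). Ppp2r1a, the scaffold subunit of protein phosphatase PP2A, was at 44.5 and 45.8 FPKM with DMSO and at 63.2 and 71.3 FPKM with ACSS2i (log2 fold change 0.56; limma adjusted p = 0.718).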
